A study of Homo sapiens with 6 samples.

Results

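MAL2 encodes a raft-associated membrane protein of apical transport, and its signal was far lower in the mutant line studied here than in the parental line. It was examined with 7 relatives (MAL, MALL, PLLP, CMTM4, CMTM6, CMTM7 and CMTM8), which makes 8 genes of the 18417 that the arrays measured with a probe set of their own. The family was chosen by the MAL2 signal of these same arrays, which fell further than that of any other gene named from them, so the MAL2 values are a description with no test. The 7 relatives were listed by family, with earlier results of these data known. They are not the whole family, since CMTM2, CMTM3 and CMTM5 are counted below with other MARVEL genes. The arrays are Affymetrix whole-transcript arrays, with 3 of the parental line HCT116, an established line of human colorectal carcinoma cells, and 3 of a mutant line derived from HCT116 whose DNA methylation is labelled as altered. All 6 carry the HCT116 background and were grown in the same standard medium. Which gene is mutated is not stated in the labels, nor whether the mutant is 1 clone, and what the mutation did and what else sets the lines apart cannot be told apart.

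MAL-family proteins cross the membrane several times through a shared MARVEL domain and gather in membrane rafts, patches rich in cholesterol and sphingolipids. MAL carries cargo from the Golgi to the apical surface of polarised epithelia, while MAL2 serves the indirect route, transcytosis, in which cargo first reaches the basolateral side and is then carried across the cell. The CMTM genes encode relatives with the same domain, several of which control how long surface proteins such as PD-L1 and the EGF receptor stay at the membrane.

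The deposited values are log2 signals made with robust multi-array average (RMA), which aligns all arrays to the same distribution. Array medians lay between 6.88 and 6.93. Arrays of the same line correlated at 0.995 to 0.996 across probe sets and arrays of different lines at 0.988 to 0.989, probe sets not being independent replicates. Differences are mutant minus parental, tested with limma over all 33297 probe sets, and a Benjamini-Hochberg adjusted p under 0.05 counts as called. The labels do not tie the arrays to separate cultures, and a p-value therefore covers the spread among these arrays alone, which can be purely technical. Several colon epithelial markers had high signals in both lines, among them EPCAM with means of 12.15 and 12.33 and KRT8 with 13.32 and 12.79. KRT8 nevertheless fell by 0.53 (limma adjusted p = 0.00171). CDX2 was intermediate, with 8.52 and 8.48. The differentiation markers VIL1 (5.76 in both lines), CDH17 (4.26 and 4.23) and KRT20 (5.87 and 5.80) were dim. GPA33 (5.82 and 5.72) was dim too, and LGALS4 (6.92 and 6.84) and CDX1 (7.12 and 7.10) lay near the array medians. Of the 12 epithelial markers 0 were called higher and 4 lower (33.3% called, against 25.9% of all genes). The 4 were CDH1, KRT8, KRT18 and KRT19, the largest fall being that of CDH1, which encodes E-cadherin, at -1.36.

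The MAL2 signal (probe set 8148040, chromosome 8) was 13.76, 13.81 and 13.81 on the parental arrays and 6.72, 6.75 and 6.18 on the mutant arrays. The lines were separated by a gap of 7.01 log2 units between the lowest parental and the highest mutant array. The parental mean was 13.79 ± 0.03 and the mutant mean 6.55 ± 0.32 (log2 ± SD, n = 3 each). The difference of -7.24 is a fitted 151-fold on the linear scale, a size that depends on the dim mutant signal and is not an exact fold. Within each array MAL2 ranked on average at percentile 99.6 of all probe sets in parental cells and at percentile 45.3 in the mutant. The third mutant array was lower than the other two, and the spread over the mutant arrays was wider than that of 99.1% of genes, whereas the parental spread was wider than that of 12.8%. RMA compresses differences of dim probe sets and the files hold no detection call, so whether any MAL2 RNA remained in the mutant was not tested. In RNA from whole cultures, fewer MAL2-positive cells and less MAL2 RNA per cell cannot be told apart.

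Among the 7 relatives 1 was called higher and 4 were called lower, with a median difference of -0.34. Over all genes the calls were 14.6% higher and 11.3% lower, 25.9% in all, with a median difference of 0.0034. These shares, here and wherever a list is set against them, include dim genes. A refit limited to probe sets with a mean of at least 6 in either line called 7403 of 21110. The parental and mutant arrays did not overlap for 5 of the 7, against 45.8% of all genes. The rise of PLLP by 0.28 was the largest difference upward among the 7. Of the CMTM genes counted below with the other MARVEL genes, CMTM3 rose by 0.70, while CMTM2 and CMTM5 were not called. Signals of different probe sets cannot be added into an amount of RNA, so the sizes are compared as changes only.

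**Figure D1:**
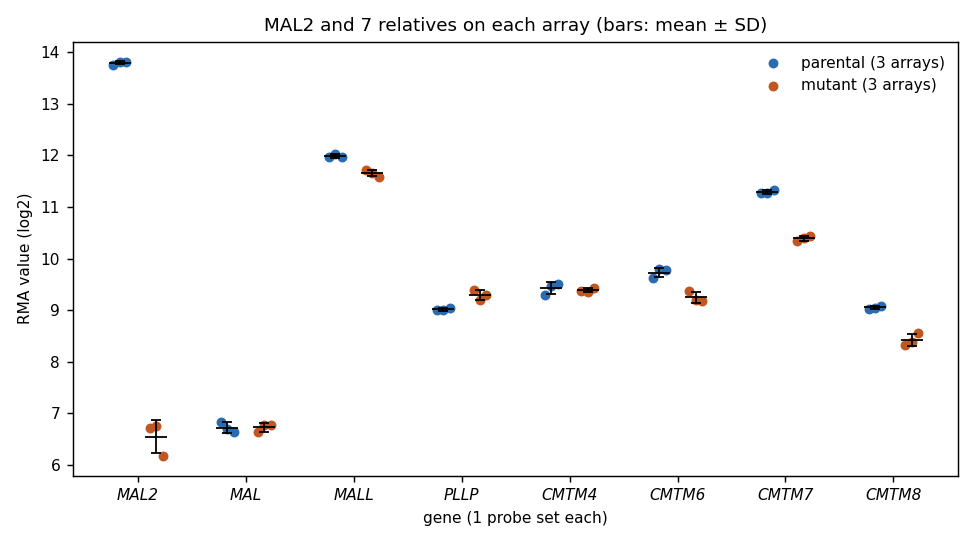
RMA values (log2) of MAL2 and its 7 relatives on each of the 3 parental (blue) and 3 mutant (orange) arrays, with black bars for the mean ± SD; levels are not comparable between genes, since each has its own probes. MAL2 drops from 13.79 to 6.55, while the other genes move by less than 1 log2 unit.

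Of the relatives that share the MAL name, MAL was not called and MALL fell. MAL, the founding member of the family, known from T cells, myelin and apical transport, gave 6.84, 6.70 and 6.65 on the parental arrays and 6.63, 6.78 and 6.77 on the mutant arrays. The lines overlapped, and the difference was 0.00093 with a 95% interval of -0.18 to 0.18 (limma adjusted p = 0.996). The upper end of this 95% interval is a rise of 0.18 in signal. With a mean of 6.73 in both lines, the MAL signal was dim, below the array medians of 6.88 to 6.93. RMA compresses differences of dim probe sets, so the interval bounds the signal and not the amount of MAL RNA. MAL ranked at percentile 47.6 of probe sets in parental cells and at 47.7 in the mutant.

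MALL, also called BENE, a raft protein found with caveolin in epithelial and endothelial cells, was bright in both lines. Its values were 11.97, 12.04 and 11.97 in parental cells and 11.71, 11.66 and 11.59 in the mutant. All mutant arrays lay below all parental arrays, and MALL fell by 0.34 on the log2 scale (interval -0.47 to -0.21, limma adjusted p = 0.00791). Its nearest measured neighbours on chromosome 2 fell by a like amount, SOWAHC with a difference of -0.35 (limma adjusted p = 0.00993) and MTLN, which encodes a mitochondrial micropeptide, with -0.37 (limma adjusted p = 0.0463). The MTLN call was lost in 4 of the 6 fits that left out a single array, those without mutant replicate 1 or 3 or parental replicate 1 or 2, where its adjusted p reached 0.136. The other 1153 measured genes of chromosome 2 had a median difference of 0.0078.

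PLLP, or plasmolipin, a raft protein of myelin and of apical membranes in kidney, was the relative that rose. The parental arrays gave 9.00, 9.00 and 9.05 and the mutant arrays 9.40, 9.20 and 9.29, without overlap. The difference of 0.28 had an interval of 0.12 to 0.43 (limma adjusted p = 0.0314). This call did not hold in 5 of the 6 fits that left out a single array, with adjusted p-values up to 0.103; it held only without mutant replicate 2. With the replicate number as a block the adjusted p was 0.0757. The neighbouring gene ARL2BP, whose product binds the small GTPase ARL2, rose by 0.38 (limma adjusted p = 0.00747), and CCL22 on the other side gave -0.14 (limma adjusted p = 0.360).

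CMTM4, which together with CMTM6 is known for stabilising PD-L1, gave 9.29, 9.47 and 9.51 in parental cells and 9.37, 9.35 and 9.42 in the mutant. The lines overlapped, and the difference of -0.04 had an interval of -0.21 to 0.13 (limma adjusted p = 0.786). Its neighbours on chromosome 16, by annotated start coordinate, were CMTM2, which gave -0.03 (limma adjusted p = 0.827), and CMTM3, which rose by 0.70. Start coordinates alone set this order, so it does not place CMTM4 between the other genes.

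CMTM8, CMTM7 and CMTM6 lie next to each other on chromosome 3, and all 3 fell in the mutant. CMTM7, which promotes uptake of the EGF receptor through RAB5, had the largest decrease of the relatives, from 11.27, 11.27 and 11.33 in parental cells to 10.34, 10.40 and 10.44 in the mutant. The difference was -0.89 (interval -1.02 to -0.77, limma adjusted p = 0.000204), a 1.86-fold decrease. CMTM8, which also lowers EGF receptor signalling, gave 9.03, 9.05 and 9.09 against 8.33, 8.39 and 8.56. It fell by 0.63 on the log2 scale (interval -0.81 to -0.45, limma adjusted p = 0.00231). CMTM6, which returns PD-L1 from endosomes to the surface, gave 9.62, 9.79 and 9.78 against 9.38, 9.21 and 9.17. The CMTM6 difference was -0.48 (interval -0.67 to -0.29, limma adjusted p = 0.00915). In each of the 3 genes the highest mutant array lay below the lowest parental array. These 3 calls held in all 6 fits that left out a single array, and the CMTM6 adjusted p was 0.0534 with the replicate number as a block.

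Genes flanking this run did not fall with it. Of the 6 nearest measured genes, 3 on each side, 1 was called higher and 0 were called lower. Over all genes 14.6% were called higher and 11.3% lower. DYNC1LI1, which encodes a light intermediate chain of the dynein motor and is the next measured gene after CMTM6, rose by 0.31 (limma adjusted p = 0.00924). On the other side GPD1L, next to CMTM8, gave -0.11 (limma adjusted p = 0.438). The differences of the other flanking genes ran from -0.08 for ZNF860 through -0.01 for TRIM71 and 0.17 for CNOT10 to 0.18 for OSBPL10. The other 1008 measured genes of chromosome 3 had a median difference of 0.019.

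Upstream sequences are shown for the relatives that move together on chromosome 3, with PLLP, which moved the other way, beside them. Each is the 250 bases before the start site, from RefSeq on GRCh38.p14 and 5′ to 3′ on the gene's strand, with CG dinucleotides in capitals because the mutant is labelled as altered in DNA methylation. The windows are chr3:32238430-32238679 on the plus strand for CMTM8, chr3:32391603-32391852 on the plus strand for CMTM7, chr3:32502853-32503102 on the minus strand for CMTM6 and chr16:57284673-57284922 on the minus strand for PLLP.
CMTM8: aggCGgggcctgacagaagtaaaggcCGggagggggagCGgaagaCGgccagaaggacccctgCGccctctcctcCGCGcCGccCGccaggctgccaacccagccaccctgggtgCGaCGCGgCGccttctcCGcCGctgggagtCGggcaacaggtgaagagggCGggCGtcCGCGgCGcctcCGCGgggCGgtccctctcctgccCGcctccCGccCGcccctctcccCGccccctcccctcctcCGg
CMTM7: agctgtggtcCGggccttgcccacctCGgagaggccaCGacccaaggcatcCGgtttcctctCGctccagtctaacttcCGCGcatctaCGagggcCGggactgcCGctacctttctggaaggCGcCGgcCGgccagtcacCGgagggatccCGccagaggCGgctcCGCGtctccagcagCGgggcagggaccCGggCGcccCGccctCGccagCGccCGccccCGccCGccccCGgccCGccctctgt
CMTM6: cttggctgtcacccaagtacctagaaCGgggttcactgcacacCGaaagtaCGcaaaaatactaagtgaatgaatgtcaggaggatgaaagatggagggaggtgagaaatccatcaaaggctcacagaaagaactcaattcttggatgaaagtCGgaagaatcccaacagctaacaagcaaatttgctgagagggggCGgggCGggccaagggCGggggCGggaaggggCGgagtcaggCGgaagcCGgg
PLLP: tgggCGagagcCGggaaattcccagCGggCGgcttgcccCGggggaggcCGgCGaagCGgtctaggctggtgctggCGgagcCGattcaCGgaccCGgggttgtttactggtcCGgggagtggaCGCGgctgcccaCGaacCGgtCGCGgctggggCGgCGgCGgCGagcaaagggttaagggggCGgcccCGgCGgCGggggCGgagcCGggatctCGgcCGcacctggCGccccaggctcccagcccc

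A CG reads the same on both strands, and CG pairs cannot overlap. CMTM8 and CMTM7 hold 29 of them, a count that 14.1% of the 35116 windows of this length in the table reach. CMTM6 holds 11, which is the median of those windows, and PLLP holds 32, reached by 9.52%. Of the genes not called, MAL holds 26 and CMTM4 holds 36. MALL has 2 entries with 0 and 18. CG-rich windows stood before genes that fell, a gene that rose and genes that were not called. Bases after the start site were not counted, and MAL2 has no window here. The methylation of these windows was not analysed here.

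**Figure D2:**
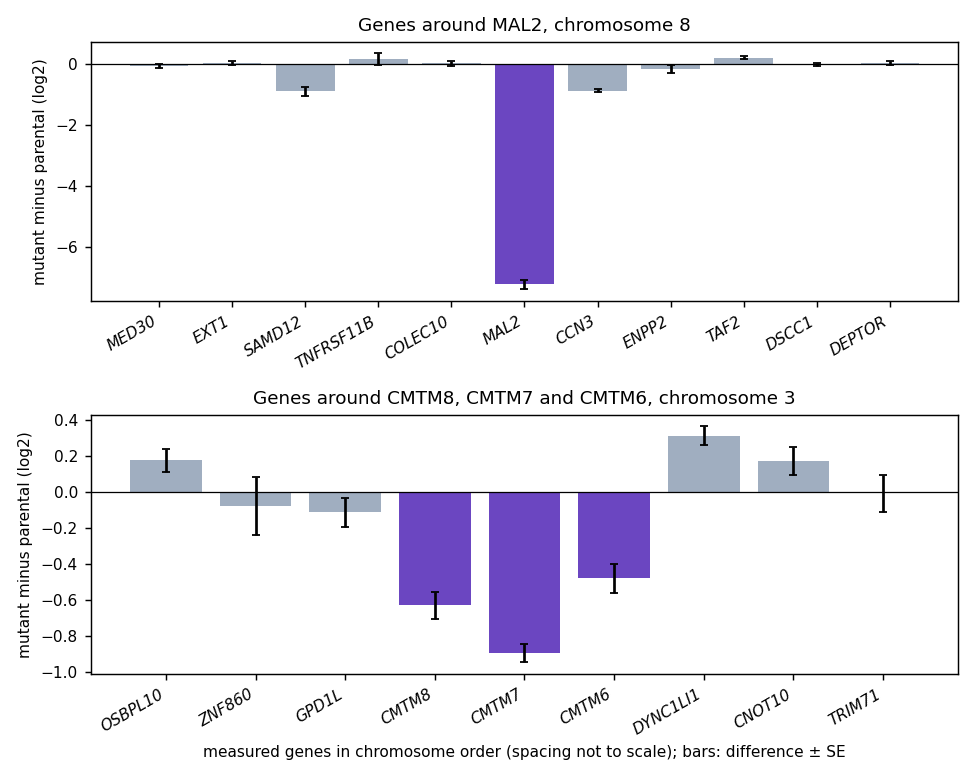
Mutant minus parental differences (log2, bars ± SE of the limma fit) of measured genes in chromosome order around MAL2 (top) and around CMTM8, CMTM7 and CMTM6 (bottom), with family members in purple and flanking genes in grey. MAL2 stands at -7.24 among genes between -0.90 and 0.20, and the 3 CMTM genes stand between -0.89 and -0.48 among genes between -0.11 and 0.31.

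Around MAL2 itself, no neighbour fell by as much as 1 log2 unit. Of the 5 nearest measured genes on each side, 1 was called higher and 2 were called lower. Over all genes 14.6% were called higher and 11.3% lower, 25.9% in all. CCN3, which encodes a secreted matricellular protein and is the next measured gene after MAL2, fell by 0.87, from 8.01 ± 0.04 to 7.14 ± 0.06 (log2 ± SD, n = 3 each; limma adjusted p = 0.000270). SAMD12, 3 measured genes before MAL2, fell from 7.05 ± 0.18 to 6.14 ± 0.22, a difference of -0.90 (limma adjusted p = 0.00681). Its mutant mean lay below the array medians of 6.88 to 6.93, a dim level that limits how large a fall the signal can show. COLEC10, directly before MAL2, had a difference of 0.02 (limma adjusted p = 0.911), but it was dim in both lines, with means of 4.46 and 4.48. EXT1, an enzyme of heparan sulfate synthesis, and DSCC1, a factor of sister chromatid cohesion, gave 0.03 and -0.02 (limma adjusted p = 0.799 and 0.889). TAF2, a subunit of the basal transcription factor TFIID, gave 0.20 (limma adjusted p = 0.0463), a call lost in all 6 fits that left out a single array, with adjusted p-values up to 0.138. MED30 (-0.06), TNFRSF11B (0.15), ENPP2 (-0.17) and DEPTOR (0.03) were not called, and TNFRSF11B and ENPP2 were dim. The other 638 measured genes of chromosome 8 had a median difference of -0.02.

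The MARVEL domain is shared by other membrane proteins, of which 17 of 21 listed had a probe set of their own. The 4 others, OCLN, CKLF, CMTM1 and PLP2, had none. Of the 17, 4 rose, 4 fell and 9 were not called (47.1% called, against 25.9% of all genes), with a median difference of -0.0092. The count of 4 lower genes dropped to 1 or 2 when any single array was left out, while the higher count stayed at 4 or 5.

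CMTM3, which is known to speed EGF receptor breakdown, rose the most of these 17. Its parental arrays gave 9.71, 9.72 and 9.73 and its mutant arrays 10.43, 10.42 and 10.42, so the lines were far apart relative to their spread. The difference of 0.70 had an interval of 0.60 to 0.81 (limma adjusted p = 0.000249), and its call held in all 6 fits that left out a single array. MARVELD1 rose by 0.43 (limma adjusted p = 0.00208). MARVELD2, the tricellulin of tricellular junctions, rose by 0.35 from 9.63 to 9.97 (limma adjusted p = 0.00509), on 2 probe sets with the same values. MYADM, a raft protein of cell spreading, rose by 0.31 (limma adjusted p = 0.00622).

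The largest fall of the 17 was that of SYNGR2, a synaptogyrin of small vesicles, at -0.51 (limma adjusted p = 0.00170). MARVELD3, a tight junction protein, gave -0.27 (limma adjusted p = 0.0219), SYNGR1 -0.30 (0.0419) and SYPL1 -0.20 (0.0365). The SYNGR1 and SYPL1 calls were lost whenever any array was left out, and the MARVELD3 call in 4 of those 6 fits. None of these 24 relatives and other MARVEL genes differed by as much as 1 log2 unit in either direction.

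**Figure D3:**
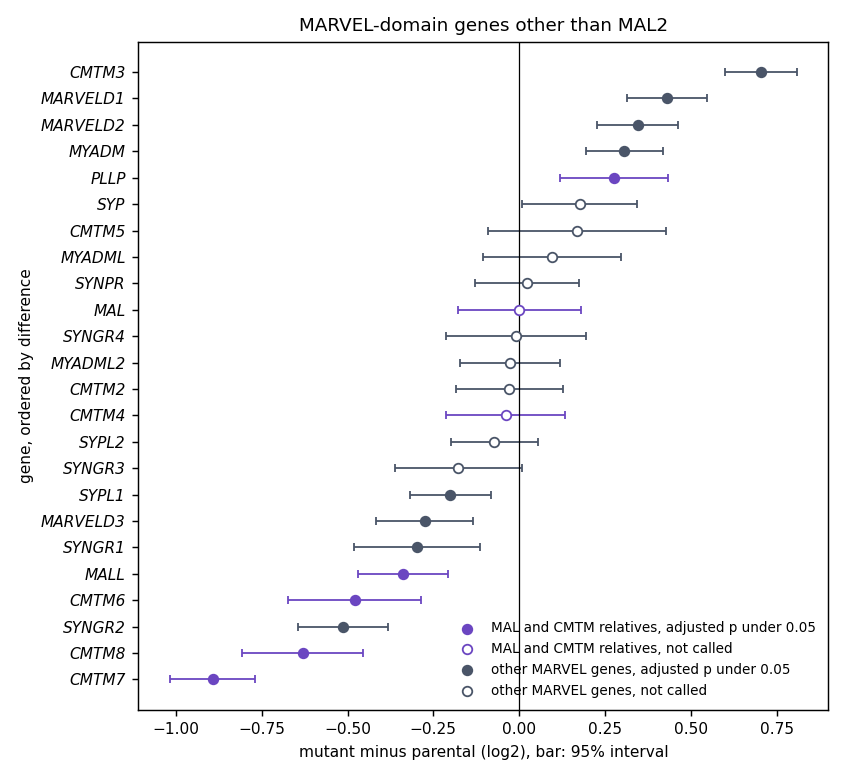
Mutant minus parental differences (log2) with 95% limma intervals for the 7 relatives of MAL2 (purple) and 17 other MARVEL genes (grey), ordered by size; filled points have an adjusted p under 0.05. CMTM3 is highest at 0.70 and CMTM7 lowest at -0.89; MAL2, at -7.24, is off this scale and not drawn.

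Among the genes of 7 known protein partners of MAL2, 1 was called higher, 2 were called lower and 4 were not called. That is 42.9% called, against 25.9% of all genes, and the median difference, over genes that went both ways, was 0.0059. TPD52L1 and TPD52L2 belong to the TPD52 family, which binds MAL2. TPD52L1 gave -0.35 (limma adjusted p = 0.0320), and TPD52L2 gave -0.23 (limma adjusted p = 0.0169). TPD52 itself gave 0.10 (limma adjusted p = 0.322). INF2, the formin that acts with MAL2 and the GTPase CDC42 in transcytosis, gave -0.18 (limma adjusted p = 0.0551) on its brighter probe set and -0.08 (limma adjusted p = 0.422) on its other. CDC42 gave 0.0059 (limma adjusted p = 0.977) and the kinase gene STK16 gave 0.09 (limma adjusted p = 0.473). MUC1, an apical mucin reported to bind MAL2, gave 0.23 (limma adjusted p = 0.0347). These 3 calls were not stable. The MUC1 call was lost in 5 of the 6 fits that left out a single array, that of TPD52L2 in 5 and that of TPD52L1 in 4, so that 0 to 1 partners were called higher and 0 to 2 lower.

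Apical transport depends on Rab GTPases, myosin motors and fusion proteins, and 38 of 39 such genes were measured. Of these, 6 rose, 7 fell and 25 were not called (34.2% called, against 25.9% of all genes), with a median difference of -0.02. RAB25, an epithelial Rab of apical recycling, had the largest fall. It gave 10.82, 10.92 and 10.83 in parental cells and 10.15, 10.00 and 10.03 in the mutant, a difference of -0.79 (limma adjusted p = 0.000577). RAB3IP, which activates RAB8, fell by 0.33 and the endocytic ATPase gene EHD4 gave -0.31, a call lost in 3 of the 6 fits that left out a single array. ANXA2 fell by 0.29 while S100A10, its binding partner, rose by 0.36. RAB14 rose by 0.44, the myosin gene MYO5C by 0.40 and RAB11FIP3, an effector of RAB11, by 0.31. The count of 7 lower genes dropped to between 3 and 5 when a single array was left out.

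Cargo of the apical membrane showed the widest range. Of 30 measured, 3 rose, 6 fell and 21 were not called (30% called, against 25.9% of all genes), with a median difference of -0.03. Many were dim, the median gene level over all 6 arrays being 6.04, so a missing call can reflect a low signal. PROM1, a marker of membrane protrusions, fell from 9.13 ± 0.15 to 4.41 ± 0.11 (log2 ± SD, n = 3 each; limma adjusted p = 6.51e-06). NT5E, a lipid-anchored ectonucleotidase, fell from 10.10 ± 0.12 to 8.04 ± 0.05 (limma adjusted p = 4.21e-05). The peptide transporter SLC15A1 and the drug exporter ABCB1 fell by 1.32 and 1.05, to dim mutant means of 5.59 and 5.26. DPP4, a brush border peptidase studied as transcytotic cargo, moved the other way, from 7.92, 8.08 and 7.97 to 9.47, 9.32 and 9.40, a rise of 1.41 (limma adjusted p = 0.000109). CEACAM1, an adhesion protein, rose by 0.74 from a dim parental mean of 5.92, and CD55, a lipid-anchored complement inhibitor, rose by 0.49. The counts in both directions stayed at 3 and 6 when any single array was left out. These are RNA levels, and where the proteins stood in the cell was not measured.

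Basolateral sorting, the opposite arm, includes the adaptor AP-1 in an epithelial form. Of 22 genes 4 rose, 4 fell and 14 were not called (36.4% called, against 25.9% of all genes), with a median difference of 0.03. AP1M2, the epithelial subunit of that adaptor, fell from 9.61, 9.51 and 9.65 to 7.99, 7.87 and 7.77, a difference of -1.72 (limma adjusted p = 8.07e-05). AP1S3, a small subunit of AP-1, fell by 0.92, AP1S1 by 0.37 and CLTC, the clathrin heavy chain gene, by 0.37. AP1G1, another AP-1 subunit, gave 0.24 and the exocyst gene EXOC2 rose by 0.36. AP4B1 and AP4M1, subunits of the adaptor AP-4, gave 0.42 and 0.32. The count of higher genes ranged from 1 to 3 when a single array was left out, since the calls of AP4B1, AP4M1 and AP1G1 were lost in 6, 4 and 1 of those fits.

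Of 17 genes of raft and caveola scaffolds 4 rose and 2 fell, which is 35.3% called against 25.9% of all genes, with a median difference of 0.07. FLOT2, a flotillin, rose by 0.63 (limma adjusted p = 0.000756), CAVIN3 of caveolae by 0.53 and EHD2, which sits at the caveolar neck, by 0.39. STOML3 gave 0.54 at a dim level, from 4.22 to 4.76, a call lost without mutant replicate 3 or parental replicate 2. STOM, or stomatin, fell by 0.55 (limma adjusted p = 0.00134) and CAV1, caveolin, by 0.29. Of 20 genes of sphingolipid synthesis 3 rose and 3 fell, 30% against the same 25.9%, with a median difference of 0.02. B4GALT6, a lactosylceramide synthase, fell by 1.06 (limma adjusted p = 0.000508), and ST3GAL5, which makes the ganglioside GM3, fell by 0.68. CERT1, which carries ceramide to the Golgi, rose by 0.48 and the desaturase gene DEGS1 by 0.43. The dim CERS3 gave 0.48 and B4GALT5 gave -0.20, calls lost in 4 and 5 of the 6 fits that left out a single array.

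Proteins whose surface level depends on CMTM members had 1 of 5 genes called lower and 0 higher (20% called, against 25.9% of all genes). The median difference of the 5 genes was -0.13. EGFR, the receptor that CMTM7, CMTM8 and CMTM3 act on, fell from 9.53, 9.56 and 9.62 to 9.13, 9.14 and 9.11. The lines did not overlap, and the difference was -0.44 (interval -0.56 to -0.33, limma adjusted p = 0.00193). CD274, the PD-L1 gene, was dim in both lines, with means of 5.52 and 5.47 and a difference of -0.05 (limma adjusted p = 0.630). PDCD1LG2, the PD-L2 gene, gave -0.22 (limma adjusted p = 0.304), the adhesion ligand gene CD58 gave -0.13 (limma adjusted p = 0.261), and IL17RC, a receptor subunit of interleukin 17, gave 0.04 (limma adjusted p = 0.827).

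**Figure D4:**
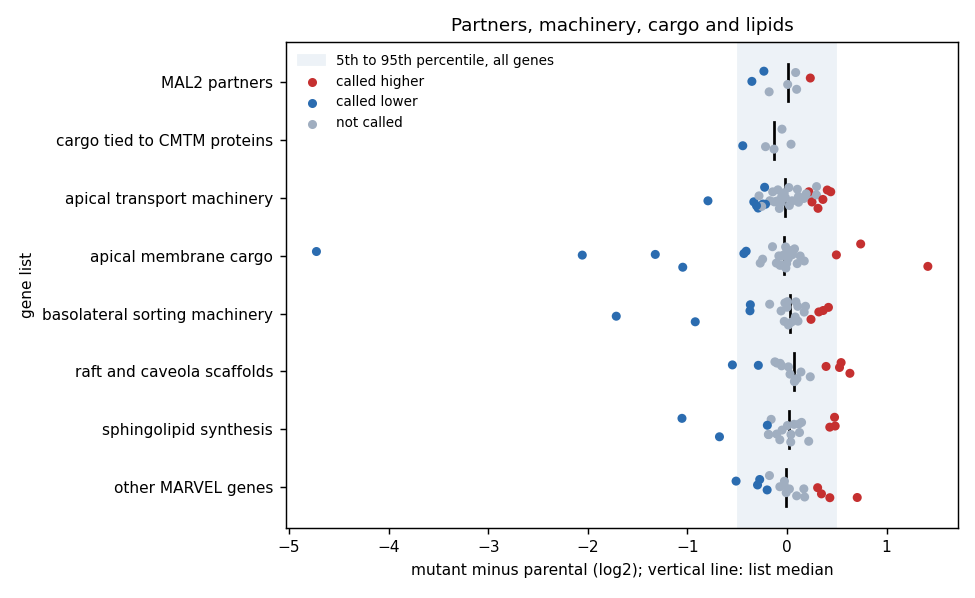
Mutant minus parental differences (log2) of each gene in 8 lists around MAL2, with red for genes called higher, blue for genes called lower, grey for genes not called, a black line for each list's median and a shaded band from -0.49 to 0.49 for the middle 90% of all genes. List medians lie between -0.13 and 0.07, and apical membrane cargo spreads the most, from -4.73 to 1.41.

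MAL and PLLP are also known from T cells and myelin, and markers of those and other cell types were mostly dim. Over all genes 14.6% were called higher and 11.3% lower. Of 9 measured T cell markers 1 was called higher, CD8A at 0.52, a call lost without parental replicate 1 or 3, and 2 were called without mutant replicate 1. Their mean level lay between 5.50 and 5.60 on the parental arrays and between 5.60 and 5.71 on the mutant arrays. Of 7 myelin markers 1 was called higher, CNP at 0.41, which many cell types express. Their mean levels were 6.72 to 6.79 and 6.83 to 6.87. Among 10 fibroblast markers PDGFRB, at 0.27, was called higher, a call lost in 5 of the 6 fits that left out a single array, and among 8 endothelial markers 0 were called. All 6 arrays are of HCT116 or the line derived from it, and the source of the PLLP difference was not tested.

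The profiles nearest to that of MAL2 over the 6 arrays were those of other genes with large decreases. Each gene was taken as deviations from its own parental mean, and the root mean square distance to MAL2 was ranked over 18416 genes. The nearest was EREG, the EGF receptor ligand epiregulin, at a distance of 0.58 log2 units, followed by VSNL1, a neuronal calcium sensor gene, at 0.64 and the olfactory receptor gene OR51B4 at 0.73. NETO2 (0.86), the epithelial transcription factor gene EHF (1.15) and the embryonic globin gene HBE1 (1.25) came next. Pearson correlations with MAL2 over the 6 arrays were 0.997 to 0.999, which mainly reflects the shared gap between 3 parental and 3 mutant arrays. The genes nearest to CMTM7 were UNK and WNT16, each at a distance of 0.02, with differences of -0.88 and -0.88. Those nearest to CMTM8 were ST14 and ELK3, each at 0.03, and those nearest to CMTM6 were PLEKHH2 and METTL23, each at 0.03. PDLIM5 (0.02) and SPRY4 (0.03) were nearest to MALL, and PDK3 (0.02) and FAM117B (0.02) to PLLP. The distance includes the mutant minus parental difference, so like differences among the nearest genes follow from the ranking itself.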

How the data were processed

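The authors deposited log2 values, 1 per probe set and array, for which the submitters' processing notes name RMA and Partek, with versions not given in the sources used here. Per the labels' protocols 100 ng of total RNA was labelled with biotin. Of 33297 probe sets 19460 have 1 symbol in the platform annotation, 1754 have several and 12083 are not named. Single-symbol probe sets gave 18417 genes, each represented by its brightest probe set over all 6 arrays; each family member has 1. The values were used as deposited, with no normalization or filter added.

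Differences were fitted with limma 3.58.1 in R 4.3.3 (two-sided moderated test of lmFit and eBayes, no covariates) and adjusted over all probe sets by Benjamini-Hochberg. Intervals are 95% limma intervals. Tables and figures were made with Python 3.11.15, pandas 2.3.3, numpy 2.4.6 and matplotlib 3.10.9. Tested on simulated data with 200 of 33297 probe sets changed, the fit recovered 62% at 1.5-fold and 96% at 4-fold, and called 10 unchanged ones. The real fit called 6166 probe sets, so these rates do not carry over to it. The folds of MALL (1.26), PLLP (1.21) and CMTM6 (1.39) also lay below the smallest simulated fold. Gene order comes from RefSeq (GRCh38.p14), by annotated start coordinate alone. Arrays give no depth, and their number limits the precision.

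The members, lists and tests were chosen with earlier results of these data known. Named were all members, all partners and CMTM cargo, up to 4 called genes per list and direction, nearest neighbours and nearest profiles. Alternatives covered scaling, dim probe sets, the variance model, array weights, the replicate block, left-out arrays, a minimum fold of 1.2, single-symbol probe sets and averaged probe sets.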

Additional observations from a re-analysis of the deposited data

How the results depend on the processing

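MAL2 gave -7.34 to -7.05 over all its alternatives. The calls of CMTM7 and CMTM8 held in all 15 refits over probe sets, MALL's in 14 and CMTM6's in 13, and no difference of a called relative changed direction. MAL (-0.04 to 0.06) and CMTM4 (-0.11 to 0.0017) were called in none of them. Requiring a fold of 1.2, a stricter test by construction, left 1743 of 6166 probe sets, 0 relatives higher, 2 lower and 16 called genes in the 8 pathway lists, with MALL at -0.34 (limma adjusted p = 0.870), PLLP at 0.28 (adjusted p = 1) and CMTM6 at -0.48 (adjusted p = 0.217). With each array left out, 4037 to 4644 probe sets were called, the lowest without mutant replicate 2 and 4109 without parental replicate 2, with 0 to 1 relatives higher, 4 lower and PLLP at 0.23 to 0.32. Deviations of same-numbered parental and mutant arrays correlated at 0.043, -0.013 and 0.0027, and those of differently numbered arrays at -0.064 to 0.060. With 3 arrays per line these values cannot settle whether arrays of the same number were paired, and the labels do not say. With the replicate number as a block 0 relatives were called higher, PLLP keeping 0.28 (limma adjusted p = 0.0757) and CMTM6 -0.48 (adjusted p = 0.0534). The pathway lists are small, and their counts per direction move with single calls. Dim probe sets, such as MAL2 in the mutant, MAL and CD274, limit what a difference can show.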
